A study of Mus musculus with 4 samples.

Results

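The cytosolic ribosomal protein genes encode the protein subunits of the ribosome. They were taken as the probe sets whose single gene symbol starts with Rpl or Rps and a digit, or is Rplp0, Rplp1, Rplp2 or Rpsa, without symbols of pseudogenes (ending in -ps) and without the Rps6k kinases. The rule found 110 probe sets of 69 genes among 22180 named genes, and the brightest probe set on average stood for each gene. RefSeq lists 67 of the 69 as protein-coding. Of the 69 genes, 65 were bright enough to be tested, out of 13602 tested genes in all. They comprised 32 large subunit genes, 3 genes of the P stalk, 23 small subunit genes and 11 paralogs or genes of similar name.

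RNA of invariant natural killer T (iNKT) cells was measured on 4 Affymetrix whole-transcript arrays, 2 from CD4-Vα14Tg mice and 2 from wild-type (WT) mice. This T cell lineage uses a nearly fixed Vα14 receptor to recognise lipids bound to CD1d. RNA was extracted from frozen tissue with RNeasy Plus, and the labels name iNKT cells as the source. The CD4-Vα14Tg mice carry a Vα14 T cell receptor α chain transgene driven by the CD4 promoter, which is active in CD4-expressing thymocytes and T cells, and the WT mice are the controls. The labels give no organ, age, sex, gate or number of mice per array, and they name no treatment. Nothing in them says that the 2 arrays of a genotype came from separate mice, so the p-values measure only the spread between these arrays, which may be technical.

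The mammalian ribosome joins a small subunit, which reads the messenger RNA, to a large subunit, which forms the peptide bond. Its protein genes are expressed in all cells, and their messenger RNAs start with a terminal oligopyrimidine (TOP) tract through which mTOR and LARP1 adjust their translation to growth signals. In T cells, ribosome production rises when a cell is activated and grows, and single subunits have effects of their own: loss of Rpl22 blocks development of αβ T cells. Most of these genes have many near-identical processed copies in the genome, so the signal of a probe set may include transcripts of a copy, which was not tested.

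Across the 13602 genes tested, arrays of 1 genotype correlated at 0.989 and 0.990 and arrays of different genotype at 0.977 to 0.983, over genes that are not independent. All 7 iNKT and T cell markers were expressed, with Zbtb16, the gene of PLZF, at 11.1 to 11.4, and Il2rb, a chain of the IL-15 receptor, fell by 0.80 (limma adjusted p = 0.0427). Most markers of other cell types lay near background: 2 of 6 CD8 and immature thymocyte genes, 1 of 4 B cell genes, 1 of 7 myeloid genes and 4 of 6 hepatocyte and stroma genes with a probe set of their own passed the filter, with mean levels from 4.08 to 4.89 on the arrays. Of 5 erythroid markers, 0 had a probe set of their own symbol. Of these genes Itgam, a myeloid and NK cell integrin, rose by 0.67 (limma adjusted p = 0.0438) at a level of 4.69 to 5.44. The 5 proliferation genes averaged 8.83 and 9.14 on the CD4-Vα14Tg arrays and 8.48 and 8.81 on the WT arrays, with 4 positive and 0 past limma's test (1 higher at an unadjusted p under 0.05). The part of these markers in the ribosomal protein values was not tested.

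Ribosomal protein genes read slightly lower in CD4-Vα14Tg than in WT iNKT cells as a group, but 1 gene, Rps18, passed the test for a fall and 0 passed for a rise. Across all genes tested, limma's adjusted p passed 0.05 for 1.95%, for 1.34% in the lower direction and for 0.61% in the higher direction, so 1 of 65 is close to the background. The median log2 difference of the 65 genes was -0.10, against -0.02 for all genes tested, and the quartiles lay at -0.17 and -0.04. A negative difference was measured for 56 of the 65 (86.2%), where 56.0% of all genes had one. Both CD4-Vα14Tg arrays lay below both WT arrays for 26 of the 65, where 23.4% of all genes had this order, and above them for 4, where 15.7% of all genes had this order. At an unadjusted p under 0.05, 6 were lower (9.23%, against 7.04% of all genes) and 1 was higher (against 4.62% of all genes).

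The differences were small, as they were across all genes tested. For 49 of the 65 genes the difference was under 0.2 in size on the log2 scale, against 9943 of all 13602 genes tested. The 95% interval of the difference lay within 1 on either side of 0, that is within 2-fold, for 63, against 13072 of the 13602. That interval reached a median of 0.30 to each side of the difference, so shifts the size of the group's median cannot be resolved gene by gene with 2 arrays a genotype. The median level of the 65 genes was 10.53 and 10.48 on the WT arrays and 10.40 and 10.28 on the CD4-Vα14Tg arrays. CD4-Vα14Tg replicate 2 was the lowest array for 41 of the 65 genes, against 3809 of all 13602 genes tested. WT replicate 1 was the highest for 42 of the 65, against 3045 of the 13602. Replicate 2 lay below replicate 1 in both genotypes for 44 of the 65, against 3405 of the 13602. The median moved to -0.04 without CD4-Vα14Tg replicate 2 (47 genes negative) and to -0.06 without WT replicate 1 (43 negative), and to -0.17 without either of the other arrays (58 and 59 negative). It was -0.06 with each array centred on its median over the tested genes (49 negative). Centring moved the median difference of all genes tested as well, from -0.02 to 0.02. In bulk RNA, fewer cells of a type and less RNA per cell cannot be told apart, and quantile normalization removes any shift of the total.

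**Figure D1:**
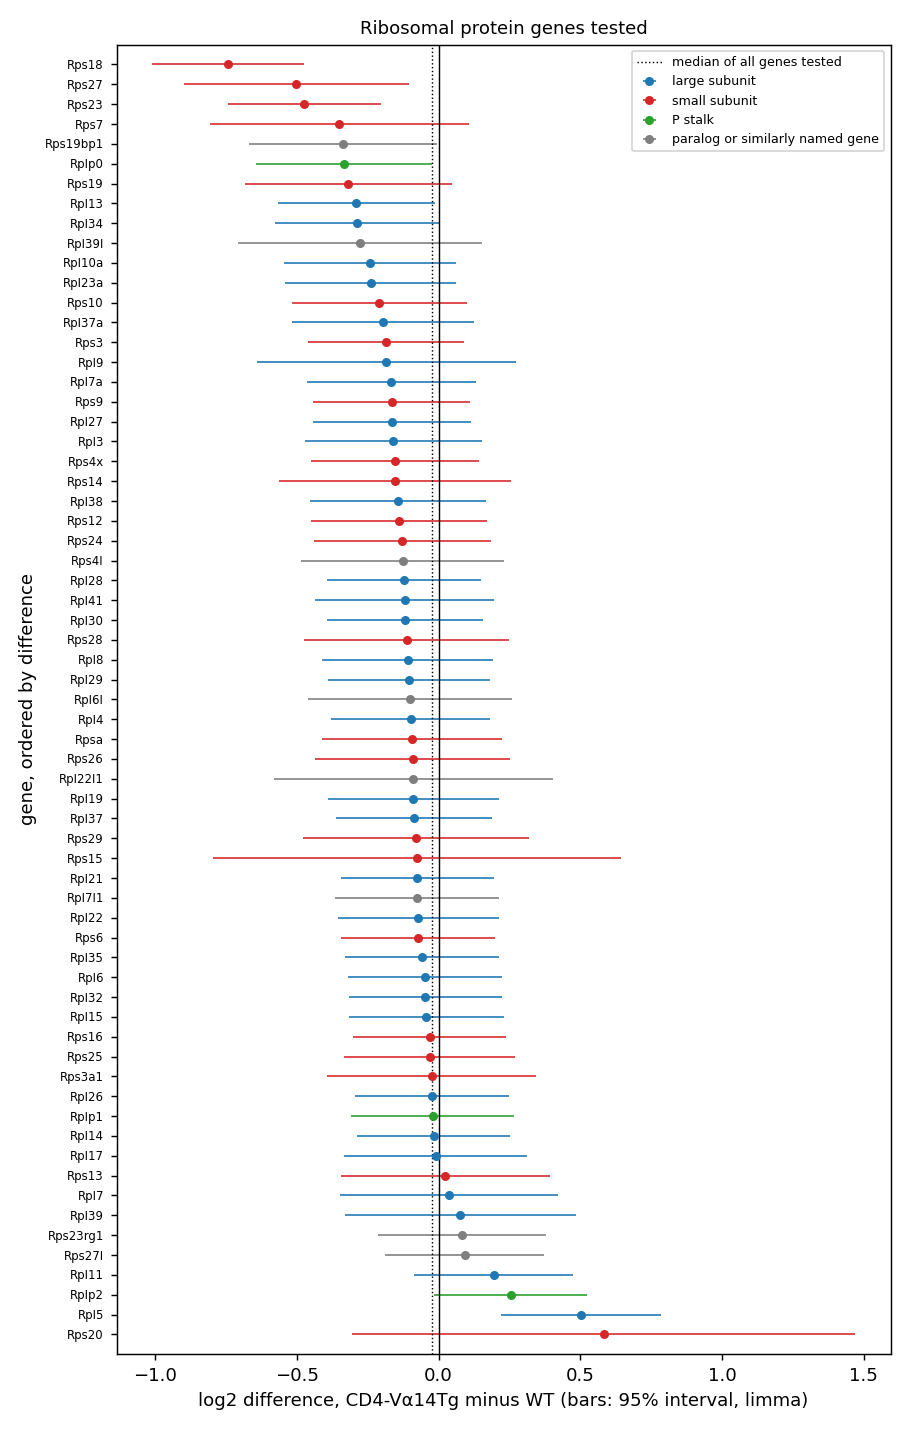
Log2 difference between CD4-Vα14Tg and WT for each of the 65 ribosomal protein genes tested, ordered by size, with the 95% interval from limma and colours for the subunit. The points of 56 genes lie left of 0, most intervals span 0, and Rps18 lies farthest left at -0.74.

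The probe sets used for these genes ran from bright to dim. Of the 65 genes, 33 had a mean level of 10 or more and 24 reached the 99th percentile of the tested genes. A further 25 lay below 7.5, and 5, Rps18 among them, lay between 8 and 10. These are signals of probe sets, which depend on the probes, and are not compared as amounts of messenger RNA between genes. Among the 33 bright genes, 32 had a negative difference, with a range from -0.32 to 0.04 and a median of -0.11, and both CD4-Vα14Tg arrays lay below both WT arrays for 16. All 505 tested genes at this level, these included, had a median of -0.05 with 65.0% negative, and 32.7% of them had both CD4-Vα14Tg arrays below both WT arrays. Among the 32 genes below 10 the differences ran wider, from -0.74 to 0.58, and 24 were negative with a median of -0.08. The single call was among them. The values of the 33 bright genes are those of the brightest probe set of each. Dimmer probe sets of these 33 genes ran wider than that, from -0.76 in Rpl13 to 0.17 in Rpl41.

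**Figure D2:**
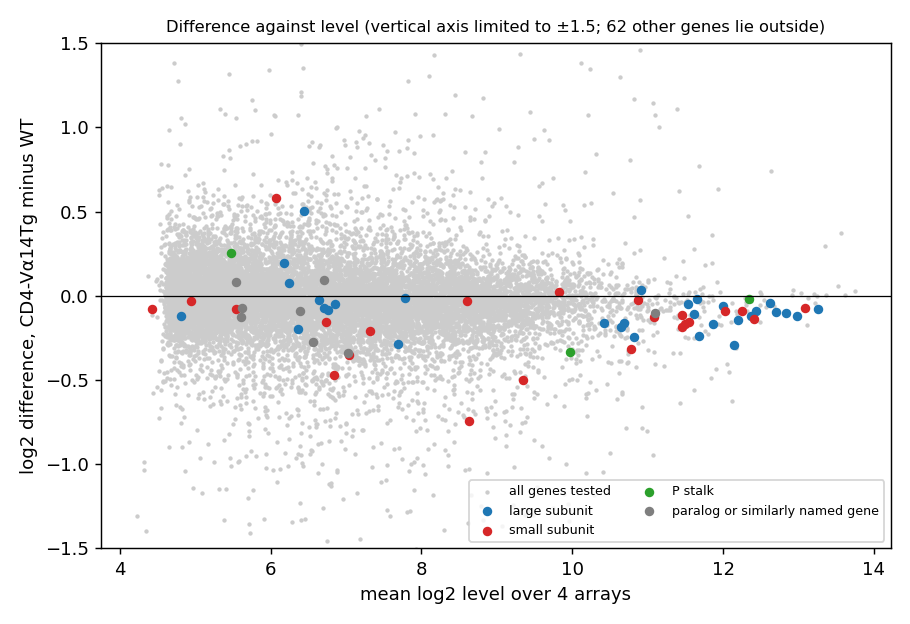
Log2 difference against mean log2 level for all 13602 genes tested (grey) and the 65 ribosomal protein genes (colours by subunit). The bright ribosomal protein genes form a narrow band just below 0 at levels from 10.4 to 13.3, and those below 10 scatter on both sides.

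Rps18, a protein of the small subunit head that contacts the initiator tRNA, read 8.26 and 8.26 on the CD4-Vα14Tg arrays and 9.02 and 8.99 on the WT arrays. The arrays within each genotype nearly coincided and the genotypes did not overlap. The log2 difference was -0.74 with a 95% interval from -1.01 to -0.48, which is 1.68-fold lower (limma adjusted p = 0.0241). The call was lost without any 1 array (limma adjusted p from 0.0905 to 0.0950, with differences from -0.76 to -0.73). It was also lost when the 3 probe sets of the gene were averaged (-0.28, limma adjusted p = 0.415), since the other 2 read 5.88 and 5.40 on average and differed by -0.01 and -0.07.

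Of the 23 small subunit genes, Rps18 included, 21 had a negative difference, with a median of -0.13. Rps27, a zinc finger subunit, read 8.93 and 9.25 against 9.42 and 9.77, a difference of -0.50 (95% interval from -0.90 to -0.11, limma adjusted p = 0.269). Replicate 2 read higher than replicate 1 in both genotypes, and the lowest WT value lay above the highest CD4-Vα14Tg value. Rps23, a subunit of the decoding centre, read 6.59 and 6.62 against 7.07 and 7.09, a difference of -0.47 (interval from -0.74 to -0.20, limma adjusted p = 0.115), with close agreement within each genotype. Rps7 had -0.35, and its arrays overlapped (6.59 and 7.15 against 7.12 and 7.32, limma adjusted p = 0.598).

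Rps19, the subunit most often mutated in Diamond-Blackfan anaemia, read 10.74 and 10.50 against 11.10 and 10.78, a difference of -0.32 (limma adjusted p = 0.513). Its highest CD4-Vα14Tg value lay just under its lowest WT value. Rps14, whose loss causes the anaemia of the 5q- syndrome, read 6.52 and 6.80 against 7.02 and 6.60 and overlapped between genotypes (-0.15, limma adjusted p = 0.866). Rps6, the substrate of the S6 kinases downstream of mTOR and one of the brightest members, read 13.08 and 13.01 against 13.13 and 13.11. Its difference of -0.07 had an interval from -0.34 to 0.20 (limma adjusted p = 0.925).

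The largest positive difference of all members was that of the small subunit gene Rps20, and it rested on 1 array. Rps20 read 6.97 and 5.76 on the CD4-Vα14Tg arrays against 6.10 and 5.47 on the WT arrays, so the genotypes overlapped. The difference of 0.58 had an interval from -0.31 to 1.47 (limma adjusted p = 0.669) and was -0.02 without CD4-Vα14Tg replicate 1. A dimmer probe set of the gene had -0.14. Rps13 was the other small subunit gene above 0, at 0.02 (limma adjusted p = 0.990). The dim genes Rps15 and Rps16 read 4.43 and 4.94 on average, near background, with differences of -0.08 and -0.03. The Rps16 value turned to 0.01 with centred arrays.

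**Figure D3:**
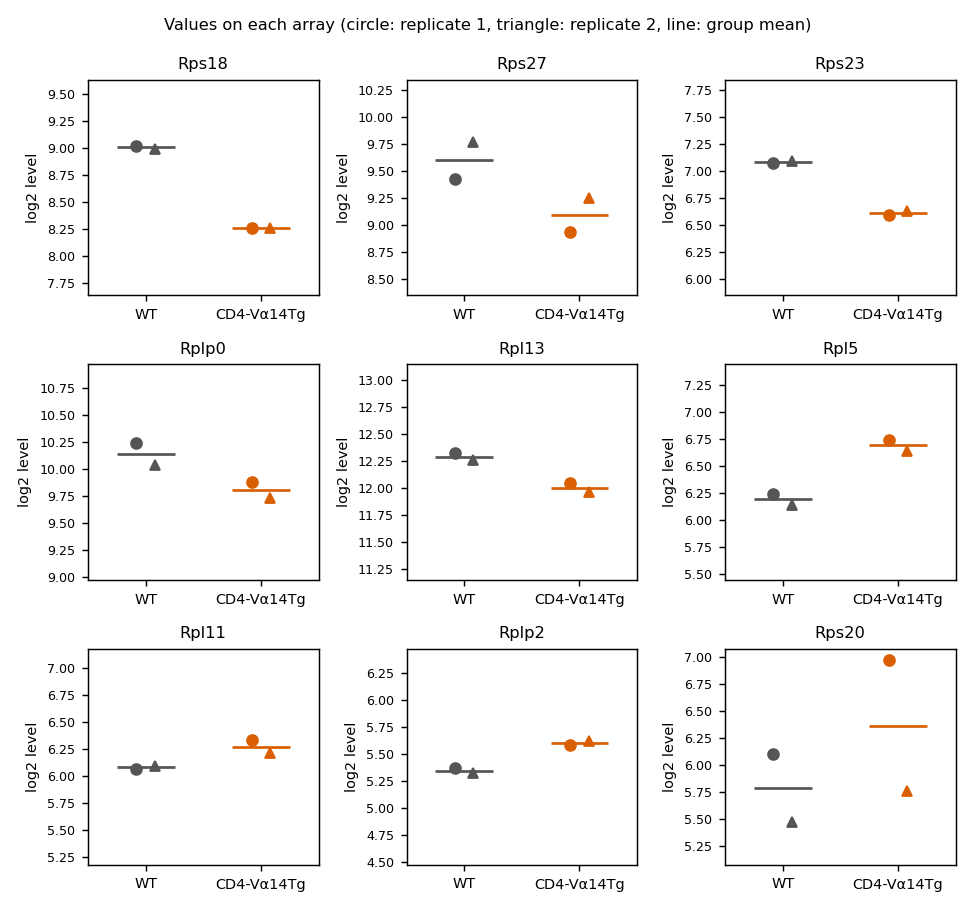
Log2 level on each array for 9 ribosomal protein genes, with WT in grey, CD4-Vα14Tg in orange, circles for replicate 1, triangles for replicate 2 and a line at each group mean; every panel spans 2 log2 units. The genotypes are apart in Rps18, Rps27, Rps23, Rplp0, Rpl13, Rpl5, Rpl11 and Rplp2 and overlap in Rps20.

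Of the 31 large subunit genes tested, 0 passed limma's test in either direction (1 was lower and 1 higher at an unadjusted p under 0.05), 27 had a negative difference, and the median was -0.10. Rpl13 read 12.04 and 11.96 against 12.32 and 12.25, a difference of -0.29 (interval from -0.57 to -0.01, limma adjusted p = 0.392). The genotypes did not overlap. A second, dimmer probe set of Rpl13 read 8.49 and 8.61 against 9.41 and 9.21, 1.69-fold lower. It passed when every probe set with 1 symbol was tested separately (limma adjusted p = 0.0286), and was singled out after its values were seen. In that fit 2 of 105 member probe sets were lower, those of Rpl13 and Rps18, where 1.71% of all 14351 probe sets were, a share close to the background. By limma 0 were higher (against 1.16%), 1 was higher at an unadjusted p under 0.05 (against 4.94%), and 92 had a negative difference (against 56.2% of all).

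Rpl5 and Rpl11 carry 5S ribosomal RNA into the large subunit and, when free, bind MDM2 and stabilise p53. Both read higher in CD4-Vα14Tg cells without passing the test. Rpl5 read 6.74 and 6.64 against 6.24 and 6.14, a difference of 0.50 (interval from 0.22 to 0.79, limma adjusted p = 0.112), the largest positive one among tested members whose genotypes did not overlap. Rpl11 read 6.34 and 6.21 against 6.06 and 6.09, a difference of 0.19 (interval from -0.09 to 0.47, limma adjusted p = 0.642). Each of these genes had 1 probe set of its own, with a mean level below 7.5.

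The bright large subunit genes lay close together. Rpl21, the brightest member, read 13.25 and 13.19 against 13.30 and 13.29 (-0.08, limma adjusted p = 0.919), and Rpl28 read 12.94 and 12.89 against 13.07 and 13.01 (-0.12, limma adjusted p = 0.822). In both, the genotypes were apart by a margin under 0.1. Rpl3, which lines the peptidyl transferase centre, read 10.73 and 10.48 against 10.78 and 10.75 (-0.16, limma adjusted p = 0.775). A second Rpl3 probe set of similar brightness read 10.235 and 10.333 against 10.559 and 10.64, a difference of -0.32 without overlap. Its limma adjusted p was 0.32 with probe sets tested separately, and the dimmest Rpl3 probe set had 0.06. Rpl7 was at 0.04 and overlapped. The dimmer gene Rpl39, at the exit of the peptide tunnel, read 6.24 on average and was at 0.08 (limma adjusted p = 0.955). The sign of both depended on the arrays used: Rpl7 ranged from -0.17 to 0.25 and Rpl39 from -0.11 to 0.27 when 1 array was left out. The dim gene Rpl30 read 4.81 on average and had -0.12.

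The P stalk, formed by Rplp0 and copies of Rplp1 and Rplp2, recruits elongation factors to the ribosome, and 0 of its 3 genes passed limma's test (1 was lower and 0 higher at an unadjusted p under 0.05). Rplp0 read 9.88 and 9.73 against 10.24 and 10.04, a difference of -0.33 (interval from -0.64 to -0.02, limma adjusted p = 0.374). Rplp1 read 12.31 and 12.34 against 12.43 and 12.27, a difference of -0.02 (limma adjusted p = 0.987) that was 0.02 with centred arrays or with quantile normalization applied again. Rplp2 read 5.58 and 5.62 against 5.37 and 5.32, a difference of 0.25 (interval from -0.01 to 0.52, limma adjusted p = 0.465). A dimmer probe set of Rplp0 read 6.855 and 7.038 against 7.016 and 7.029 and overlapped (-0.08). Thus, on the probe sets used, Rplp0 lay below WT and Rplp2 above WT on both arrays, and Rplp1 overlapped.

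Paralogs can replace a subunit in some tissues or have other roles. Of 11 paralogs and genes of similar name, 8 were tested, 0 passed limma's test (1 was lower and 0 higher at an unadjusted p under 0.05), 6 had a negative difference, and the median was -0.10. Rps19bp1, a nucleolar protein that binds RPS19 and activates SIRT1, read 6.83 and 6.88 against 7.04 and 7.35 (-0.34, limma adjusted p = 0.418). Rpl22 and its paralog Rpl22l1, which have opposed roles in T cell development, differed by -0.07 (interval from -0.36 to 0.21) and -0.09 (interval from -0.58 to 0.40). The arrays overlapped in both, at 6.70 and 6.63 against 6.67 and 6.81 for Rpl22, and at 6.03 and 6.66 against 6.32 and 6.54 for Rpl22l1.

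Rps27l, a p53 target, read 6.69 and 6.82 against 6.68 and 6.63, a difference of 0.09 (limma adjusted p = 0.894), while its partner Rps27 lay at -0.50. Rpl39l, best known from the testis, read 6.69 and 6.15 against 6.73 and 6.66, with CD4-Vα14Tg replicate 2 standing apart (-0.28, limma adjusted p = 0.674), while Rpl39 lay at 0.08. Rps4l and Rps4x had -0.13 and -0.15, and Rpl7l1, a ribosome assembly factor, had -0.08. The difference of Rps23rg1, a retrotransposed copy of Rps23, was 0.08.

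The 4 members set aside as dim were Rpl27a, Rpl10l, Rpl3l and Rpl32l. Rpl3l, the form of Rpl3 found in muscle, read from 4.29 to 4.48 on the arrays, and Rpl10l, the copy of Rpl10 used in spermatogenesis, from 3.18 to 3.31. Rpl27a read from 3.47 to 3.84 and Rpl32l from 3.01 to 3.79. Rpl27a is a standard subunit gene with 1 probe set of its own symbol, and its dim signal is not read as a low level of the messenger RNA.

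How bright a member read depended on its probe set. Of the 69 genes, 44 had 1 probe set and 25 had 2 or more, 66 in all. Within these 25 genes the brightest and dimmest probe sets differed by up to 9.08 log2 units, with a median of 4.16 and with over 4 in 13 genes. Rps26 read 12.3 on one probe set and 3.18 on the other, and Rpl19 read 12.4 and 5.46. In 18 of the 25 genes all probe sets had a negative difference, and in the other 7 the signs were mixed. The 2 probe sets of Rpl23a held the same values on every array, as did 2 of the 3 of Rps19 and 6 of the 8 of Rps12, so they are not separate measurements.

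**Figure D4:**
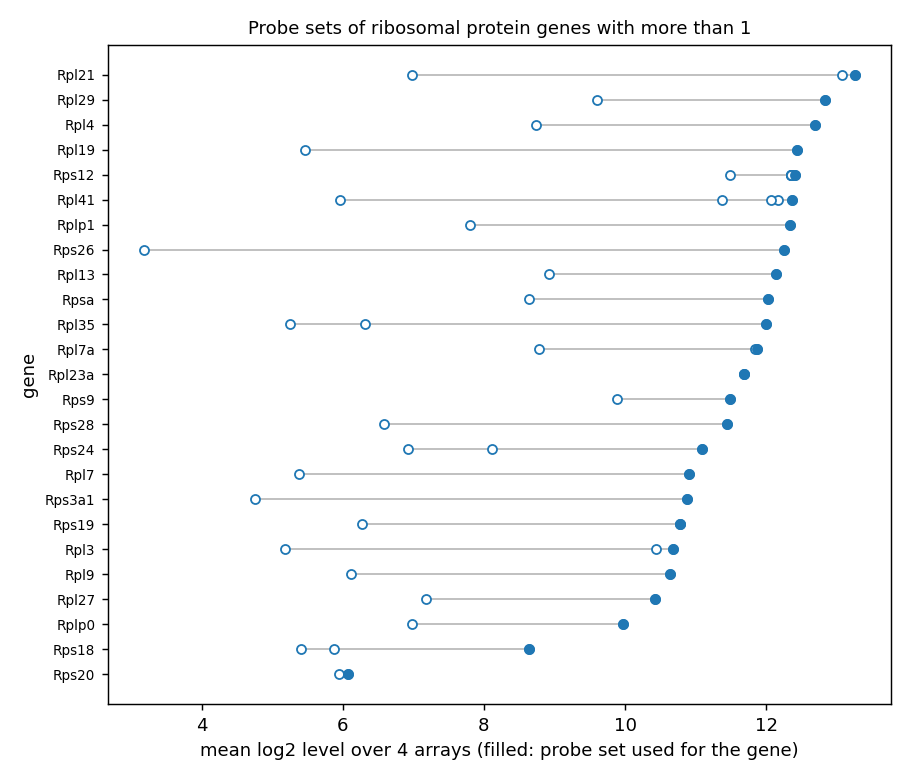
Mean log2 level of each probe set of the 25 ribosomal protein genes with more than 1, with the probe set used for the gene filled. Rps26 spans from 3.18 to 12.3, and in most genes a bright probe set stands far from a dim one.

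Part of the family was measured by probe sets that the rule leaves out. Of 77 standard subunit genes, 58 had a probe set of their own symbol and 57 were tested, while 11 large subunit and 8 small subunit genes had none and were not analysed here. A further 57 probe sets listed a ribosomal protein gene among several symbols. For 12 of the 69 members such a probe set was brighter than their own. Of the 57, 48 listed no small nucleolar RNA, and 35 of these had a difference below 0, where 56.0% of all genes tested had one. The median difference of the 48 was -0.12, close to that of the members. Their median level was 8.97 and 8.56 on the CD4-Vα14Tg arrays and 8.81 and 8.66 on the WT arrays, so the genotypes overlapped in it. The other 9 listed a small nucleolar RNA beside the ribosomal protein gene. Their median difference was 0.40, with a range from -0.07 to 1.05 and 8 of 9 above 0, against 5986 of all 13602 genes tested. Both CD4-Vα14Tg arrays lay above both WT arrays in 3 of the 9, where 15.7% of all genes tested had this order. The median level of these 9 was 9.96 and 9.49 on the CD4-Vα14Tg arrays and 9.76 and 9.19 on the WT arrays. The genotypes overlapped in these medians, and replicate 1 read higher than replicate 2 in both. The genes of these probe sets cannot be told apart and are not named. The 15 probe sets of pseudogene symbols had a median of 0.04, with 7 below 0, where 56.0% of all genes tested were.

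The windows around the annotated start sites show what these genes share beyond their symbols. RefSeq promoters of GRCm38.p6, of 250 bases before and 50 after the start, were matched by gene number for 54 of the 69 genes, with the first listed start taken for each. Shown are 25 bases on each side of the start, on the coding strand, for the members with an unadjusted p under 0.05 and for the brightest members with a match. The longest run of C or T is in capitals.
Rps18 (chr17:33955641-33955690, minus strand): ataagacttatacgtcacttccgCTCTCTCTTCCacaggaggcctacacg
Rps27 (chr3:90213624-90213673, minus strand): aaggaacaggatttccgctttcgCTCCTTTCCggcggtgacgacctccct
Rps23 (chr13:90923097-90923146, plus strand): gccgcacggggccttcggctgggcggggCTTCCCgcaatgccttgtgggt
Rps19bp1 (chr15:80264282-80264331, minus strand): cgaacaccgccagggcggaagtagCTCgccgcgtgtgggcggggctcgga
Rplp0 (chr5:115559442-115559491, plus strand): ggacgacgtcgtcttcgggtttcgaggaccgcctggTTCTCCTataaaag
Rpl13 (chr8:123102325-123102374, plus strand): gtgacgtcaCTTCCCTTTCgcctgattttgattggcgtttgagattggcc
Rpl5 (chr5:107900503-107900552, plus strand): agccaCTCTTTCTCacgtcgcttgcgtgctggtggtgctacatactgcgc
Rps6 (chr4:86857343-86857392, minus strand): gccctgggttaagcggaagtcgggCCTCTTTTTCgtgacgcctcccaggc
Rpl28 (chr7:4792940-4792989, plus strand): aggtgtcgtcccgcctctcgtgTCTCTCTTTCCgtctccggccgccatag

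In Rps18, Rps27, Rps6 and Rpl28 the run spans the annotated start, where a TOP tract lies. In Rps23 and Rplp0 the longest run begins after the annotated start, and in Rpl13 and Rpl5 it ends before it. Rps19bp1, which is no ribosomal subunit, has a run of 3 bases. A run of 8 or more C or T bases within the window was found in 28 of 54 members (51.9%), against 19.4% of 27025 genes with 1 promoter each and 18.9% of the protein-coding ones. The core CGGAAG of ETS factor sites, searched on both strands over the 300 bases, was in 34 of 54 (63.0%, against 17.2% of all promoters and 21.5% of protein-coding ones). ATGGCGG, part of the YY1 site, was in 8 (14.8%, against 4.19% of all and 5.41% of protein-coding promoters). The GC box GGGCGG was in 28 (51.9%, against 35.9% and 46.3%), TATAAA in 5 (9.26%, against 14.2% and 13.3%) and the E-box CACGTG in 3 (5.56%, against 7.24% and 7.90%). A match is a description of the letters, not of a site in use. Of the members tested, the 26 with the run of 8 or more had a median difference of -0.09 and the 24 without it -0.12. The 33 with CGGAAG had -0.09 and the 17 without it -0.15.

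Other genes of translation had medians below 0 and no call by limma. All genes tested also had a median below 0, at -0.02, with 56.0% negative and 1.95% called. At an unadjusted p under 0.05 by limma, 7.04% of all genes were lower and 4.62% higher. Of the 12 genes of the list of elongation factors and other TOP messenger RNAs that were tested, 12 had a negative difference, with a median of -0.12, 0 passed limma's test and 1 was lower at an unadjusted p under 0.05. That gene was Tpt1, which encodes the translationally controlled tumour protein, at 10.52 and 10.23 against 10.99 and 10.90 (-0.57, limma adjusted p = 0.118). Pabpc1, the poly(A)-binding protein, had -0.26 and Eef1d, an elongation factor subunit, -0.27. Fau, whose product is processed to the small subunit protein eS30, read 11.76 and 11.60 against 11.99 and 11.82 (-0.23, limma adjusted p = 0.605), and it was tested with Serbp1, which binds idle ribosomes (-0.11), and Ltv1, a small subunit assembly factor (0.04). At an unadjusted p under 0.05, 0 of these 3 were lower or higher.

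Initiation factors had a median of -0.06 over 24 genes, 19 of them negative, and 0 passed (1 was higher at an unadjusted p under 0.05). Eif4a1, the helicase of the cap-binding complex, was that gene, with both CD4-Vα14Tg arrays above the WT values of 13.6 and 13.2 (0.37, limma adjusted p = 0.387), and Eif3j1 and Eif3k had -0.48 and -0.25. Ribosome assembly genes had a median of -0.06 over 29 genes, 21 negative and 0 past the test (1 lower and 1 higher at an unadjusted p under 0.05). Wdr12, of the PeBoW complex, had 0.39, and Bysl and Ddx21, which act in the nucleolus, had -0.33 and -0.28. RNA polymerase I and III genes had a median of -0.04 over 14 genes, and 9 were negative (64.3%, against 56.0% of all genes tested). Of the 14, 0 passed the test (2 lower at an unadjusted p under 0.05), with Polr2l at -0.50, Polr1b at -0.31 and Ubtf at -0.20.

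Genes that control ribosomal protein messenger RNAs had a median of -0.11 over 14 genes, 11 negative and 0 past the test (2 lower at an unadjusted p under 0.05). Eif4ebp1, a translation repressor that mTOR inactivates, read 7.22 and 7.13 against 7.76 and 7.56 (-0.48, limma adjusted p = 0.148). Rptor, the mTORC1 scaffold, had -0.27 (limma adjusted p = 0.428). Myc, which raises transcription of ribosomal protein genes, read 8.22 and 8.66 against 8.69 and 9.07, with the higher CD4-Vα14Tg value just under the lower WT value (-0.44, limma adjusted p = 0.441). The mitochondrial ribosomal protein genes, which form the separate ribosome of that organelle, had a median of -0.04 over 70 genes, 48 negative and 0 past the test (2 lower at an unadjusted p under 0.05). Both CD4-Vα14Tg arrays lay below both WT arrays in 14 of them (20.0%, against 23.4% of all genes). Mrpl22, Mrpl16 and Mrps35, all of which had both CD4-Vα14Tg arrays below both WT arrays, had -0.38, -0.37 and -0.22 (limma adjusted p = 0.217, 0.333 and 0.561). Whether the cytosolic and mitochondrial sets differ was not tested.

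**Figure D5:**
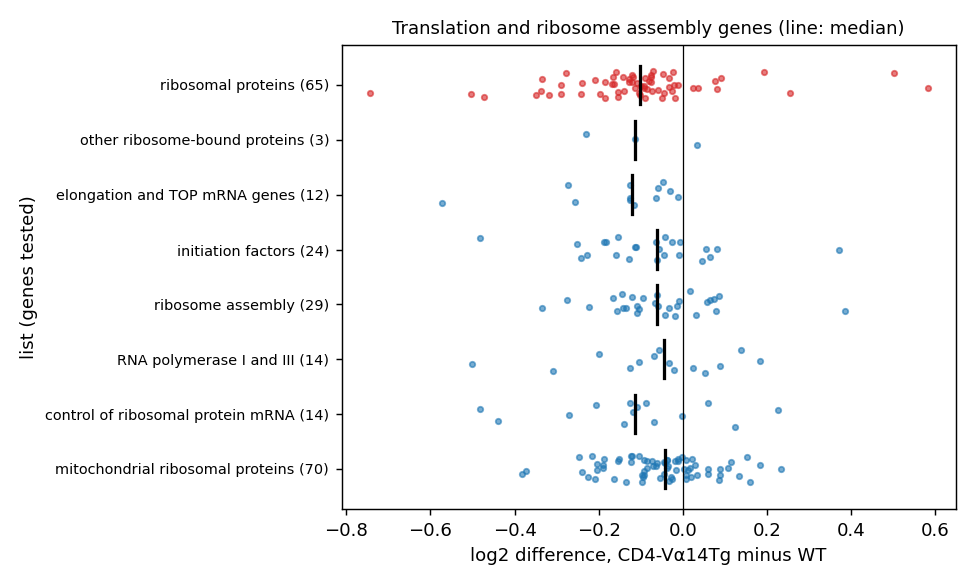
Log2 difference of each tested gene (points, spread vertically for view) in the ribosomal protein genes (red) and 7 lists of translation and ribosome genes (blue), with the median as a black line and the number tested in brackets. Every median lies between -0.12 and -0.04.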

How the data were processed

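Per the submitters' processing notes, the deposited values were made with RMA and Affymetrix Power Tools. They are log2 values, 1 per probe set and array, as the authors deposited them; the tool versions and the build were not given in these sources. RMA quantile-normalizes the arrays, and low signals compress differences. The number of arrays limits the precision.

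Of 41345 probe sets, 23521 had 1 symbol in the platform annotation, 1814 several and 16010 none; 69 of 69 members matched the RefSeq table by gene number. A gene was tested where 2 or more arrays reached the 40th percentile of the probe sets with 1 symbol. Groups came from the genotype label. All tested genes were fitted with limma 3.58.1 in R 4.3.3 (lmFit, eBayes, two-sided, Benjamini-Hochberg over all genes, threshold 0.05). The fit was also run on simulated independent genes, 200 of them changed by more than any member differed here. That run does not show how well differences as small as those of the members are detected. Tables used Python 3.11.15 and pandas 2.3.3. The alternatives were no filter, quantile normalization again, centred arrays, a variance trend, the mean of a gene's probe sets, a replicate block and leaving out each array, and, chosen after seeing the data, the dimmest probe set of each member and probe sets tested separately. The members and lists were chosen with earlier results of these data known. Named were all calls, the 6 largest positive and 6 largest negative differences, the 3 brightest and 3 dimmest tested members, the dim ones, paralog pairs, the P stalk, 5 genes of known roles and up to 3 genes per list. Rps13, Rps26, Rpl19, Rpl23a, Rps12 and Rpl13 were named after their values were seen. Rpl6l, Rpl32l and Rps23rg1 were placed with the paralogs after seeing the annotation.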

Additional observations from a re-analysis of the deposited data

How the results depend on the processing

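The count of ribosomal protein genes lower was 1, Rps18, and remained that gene without a filter, with quantile normalization again, with centred arrays and with a variance trend. It was 0 with the mean of a gene's probe sets, 0 without any 1 array, 2 when probe sets were tested separately and 2 with the replicate block (1 was then higher). The median of the members lay between -0.17 and -0.037 with 1 array left out. Of all genes, 265 passed, 182 of them lower. Without 1 array these counts lay between 166 and 221 and between 101 and 147. With the replicate block, 674 passed, 422 of them lower, and 1 elongation and TOP list gene. Rps27 and Rpl5 then had a limma adjusted p of 0.0449. Same-numbered arrays deviated together (correlation 0.262 over all genes tested, 0.625 over the 65 members), but with 2 numbers the arrays are only known to share a number. With the dimmest probe set of each member the 1 call was Rpl13 in place of Rps18.

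Some members that did not pass the test changed sign. With 1 array left out, the differences ran from -0.404 to 0.226 for Rpl22l1, from -0.114 to 0.267 for Rpl39, from -0.1745 to 0.2455 for Rpl7, from -0.163 to 0.012 for Rpl7l1, from -0.104 to 0.061 for Rplp1 and from -0.362 to 0.054 for Rps14. They ran from -0.518 to 0.365 for Rps15, from -0.0215 to 1.187 for Rps20, from -0.0205 to 0.1845 for Rps23rg1 and from -0.314 to 0.06 for Rps4l. With the mean of the probe sets Rpl7 had -0.0655. With quantile normalization again Rplp1 had 0.025, and with centred arrays Rplp1 had 0.02025 and Rps16 0.00975. With the dimmest probe set Rpl3 had 0.0555, Rpl7 -0.1665 and Rps20 -0.144. The cause was not tested. With 2 arrays a genotype, dim probe sets and a median standard error of 0.13, small differences of single genes are not resolved.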
